A study of Homo sapiens with 18 samples.

Results

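The ATP-binding cassette (ABC) family holds the pumps that use ATP to move lipids, bile constituents, drugs, metals and peptides across membranes, together with a few soluble relatives that act on ribosomes. Its members were taken here as every gene with a symbol from ABCA to ABCG followed by a number, together with CFTR, that had at least 1 probe set annotated to that gene alone, pseudogenes left out. This gave 42 genes of 19775 measured, with 98 probe sets between them, and where a gene had several, the one brightest on average over the 18 arrays stood for it. ABCA10 and ABCC6 were not analysed here. Levels are log2 signals of arrays normalized together, so that 1 log2 unit is a doubling of signal, and levels of different genes are not compared, since probe sets differ in brightness.

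The arrays came from 3 established human hepatocellular carcinoma cell lines, labelled Hep3B, SNU449 and PLC (PLC/PRF/5), grown in RPMI medium. Each line was transfected by lipofection with an siRNA against ATAD2, a bromodomain protein with ATPase domains that binds chromatin, or with a non-targeting control siRNA, and each of the 6 groups had 3 arrays labelled as biological replicates, 18 in all. Although the labels use the word knockout for the treated samples, the design text describes siRNA. The sources used here do not give the hours after transfection or the number of siRNA sequences, and effects of a sequence and of losing ATAD2 cannot be told apart. RNA was taken from whole cultures, and fewer expressing cells and less RNA per cell cannot be told apart.

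A typical ABC transporter pairs membrane-spanning segments with nucleotide-binding domains that clamp together on ATP and drive the substrate across the membrane. In hepatocytes, exporters of the canalicular membrane (ABCB1, ABCB4, ABCB11, ABCC2, ABCG2, ABCG5 with ABCG8) form bile and remove drugs, while ABCC3, ABCC4 and ABCA1 sit on the blood side and release conjugates or cholesterol. Transporters of mitochondria and peroxisomes serve heme, iron-sulfur and fatty acid metabolism, and ABCE1 and the F subfamily have no membrane part and work in translation.

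Knockdown was measured first. The ATAD2 signal fell by 3.80 log2 units in Hep3B, by 2.39 in SNU449 and by 2.62 in PLC (each ± 0.16 SE, n = 3 against 3). The SE, here and below, rests on 1 spread per gene shared by all 6 groups. The groups did not overlap, and limma's adjusted p was at most 6.15e-07. The line labels carry a limit of their own. Hep3B is known to lack RB1 and to make albumin, yet the control arrays labelled Hep3B had an RB1 signal of 9.47 and an ALB signal of 3.03, against 4.44 and 13.8 on those labelled SNU449, so that every statement that names Hep3B or SNU449 rests on labels that these genes run against. This holds for all comparisons between lines that include either of them and for the line to which an siRNA change is credited. The contrast of siRNA with control arrays of 1 label is the same under either name. Of other hepatocyte and liver cancer genes looked at, AFP, APOA1, APOB, TTR, SERPINA1, TF and GPC3 were, like ALB, higher on control arrays labelled SNU449. FGB ran the other way, with 11.5 on control arrays labelled Hep3B and 6.88 on those labelled SNU449. The two-sided p-values are from limma's moderated test, adjusted by the Benjamini-Hochberg method over all 19775 genes, with a threshold of 0.05. The siRNA arrays of PLC replicates 1 and 3 had a 5′ minus 3′ signal of the actin and GAPDH control probe sets of -1.15 and -1.09 log2 units, against -0.45 for replicate 2 and -0.59 to -0.44 on the PLC control arrays, and replicate 2 of the Hep3B siRNA group had -0.42 against -0.79 to -0.65 on the line's other arrays.

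Many members were near the background of the array. The signal of 82 olfactory receptor genes, which liver cells are not known to use, had a 95th percentile of 5.59, and 17 of the 42 members were above it on all 18 arrays, 12 on some arrays and 13 on none. Of all 19775 genes, 45.8% were above it on every array. All 4 soluble translation factors, 4 of 7 in the group of ABCC1, ABCC3 to ABCC5 and ABCC10 to ABCC12, and 2 of 3 peroxisomal and cobalamin transporters were above it throughout. Only 1 of 6 canalicular and multidrug exporters (ABCC2) was. In the lipid and sterol group, ABCA1 and ABCA7 were above it on all arrays, and ABCG1, ABCG4, ABCG5 and ABCG8 on none. On the control arrays of a line, 21 members were above it on all 3 arrays in Hep3B, 24 in SNU449 and 23 in PLC.

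**Figure D1:**
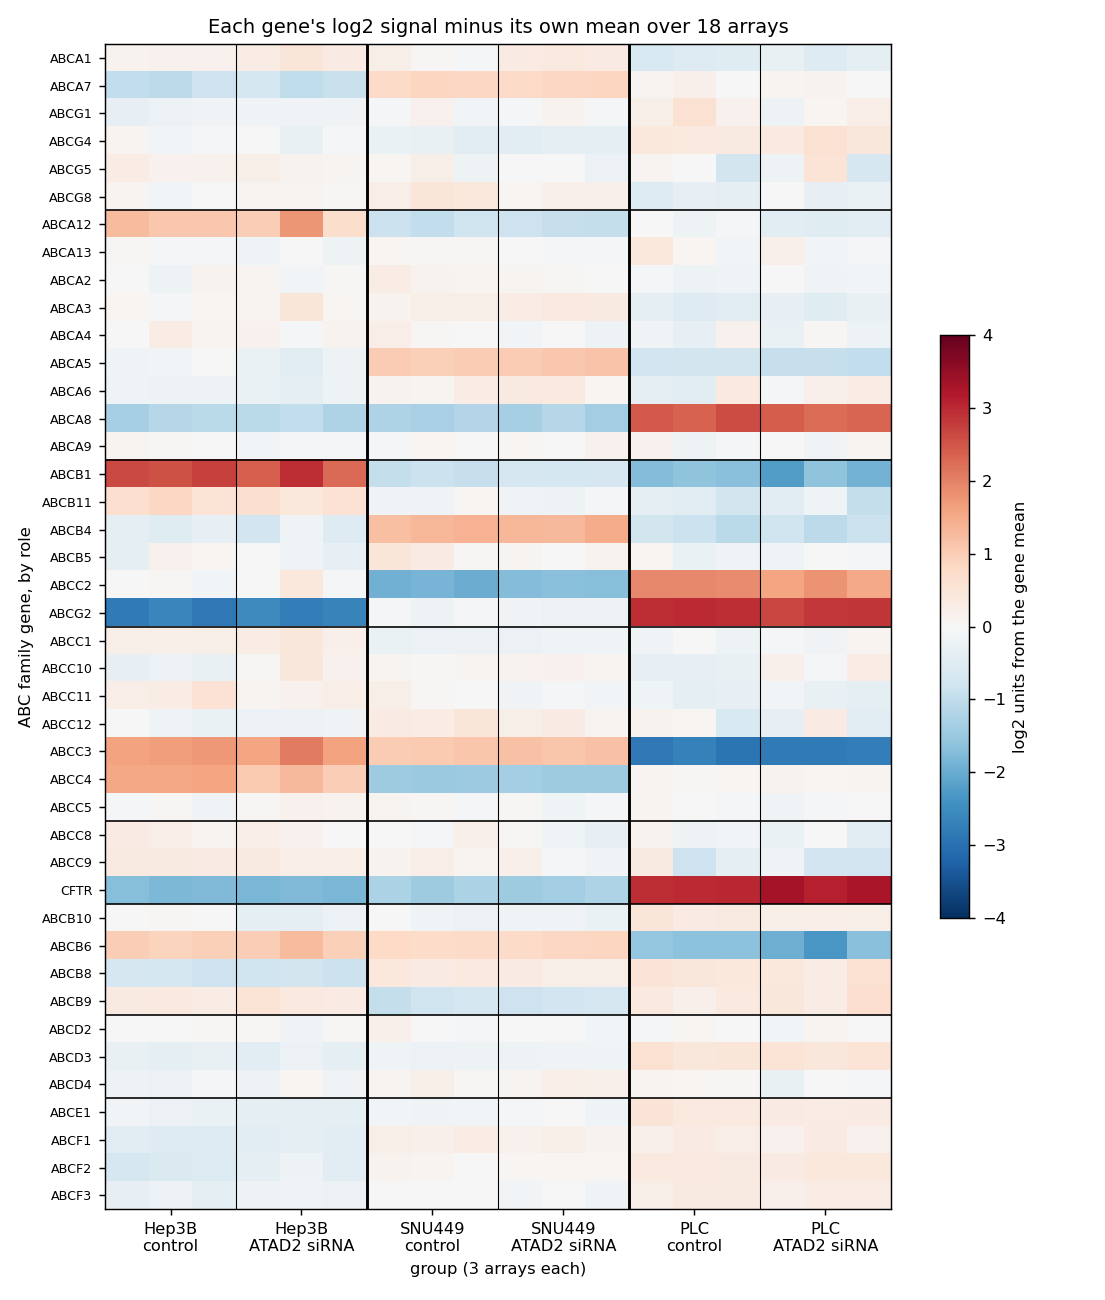
Log2 signal of each of the 42 ABC family genes on each of the 18 arrays, minus that gene's own mean over all arrays (colour, in log2 units), with genes in rows by role and arrays in columns by group. Most of the colour follows the cell line, as for ABCB1, ABCC3, ABCG2 and CFTR, and the siRNA columns of a line resemble its control columns.

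After ATAD2 siRNA, 6 of 42 members changed in Hep3B (14.3%, against 16.4% of all genes). ABCC10 and ABCF2 were higher, where 8.68% of all genes were, and ABCC4, ABCB10, ABCA5 and ABCE1 lower, where 7.74% were. In PLC, 1 of 42 changed (2.38%, against 4.57% of all genes, 2.34% higher and 2.24% lower), again ABCC10, which was higher. No member changed in SNU449, where limma called 0.258% of all genes. At an unadjusted p under 0.05, 3 members differed in SNU449 and 2042 of all genes (10.3%). At the adjusted threshold and with arrays normalized together, the family's share of changed genes was thus close to or below that of the whole array in each line. In PLC this depended on threshold and scaling. At an unadjusted p under 0.05, 12 of 42 members differed in PLC (21% of all genes) and 8 in Hep3B (27.4%). With the values as deposited 3 members were called in PLC (5.08% of all genes). Normalization within each line gave 4 (6.05%) and centring arrays on their medians 4 (4.81%). Its median log2 change was -0.03 in Hep3B, -0.02 in SNU449 and -0.02 in PLC, beside -0.02, -0.02 and 0.01 for all genes. Groups did not overlap for 9, 12 and 10 members in Hep3B, SNU449 and PLC, that is of 42 each, where 32.8%, 22% and 19.9% of all genes did not overlap. Of the members, 36 changed in no line, 5 in 1 line and ABCC10 in 2. The split by direction in Hep3B moved with scaling, from 2 higher and 4 lower to 3 and 2 with the values as deposited and to 4 and 2 with arrays centred on their medians.

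**Figure D2:**
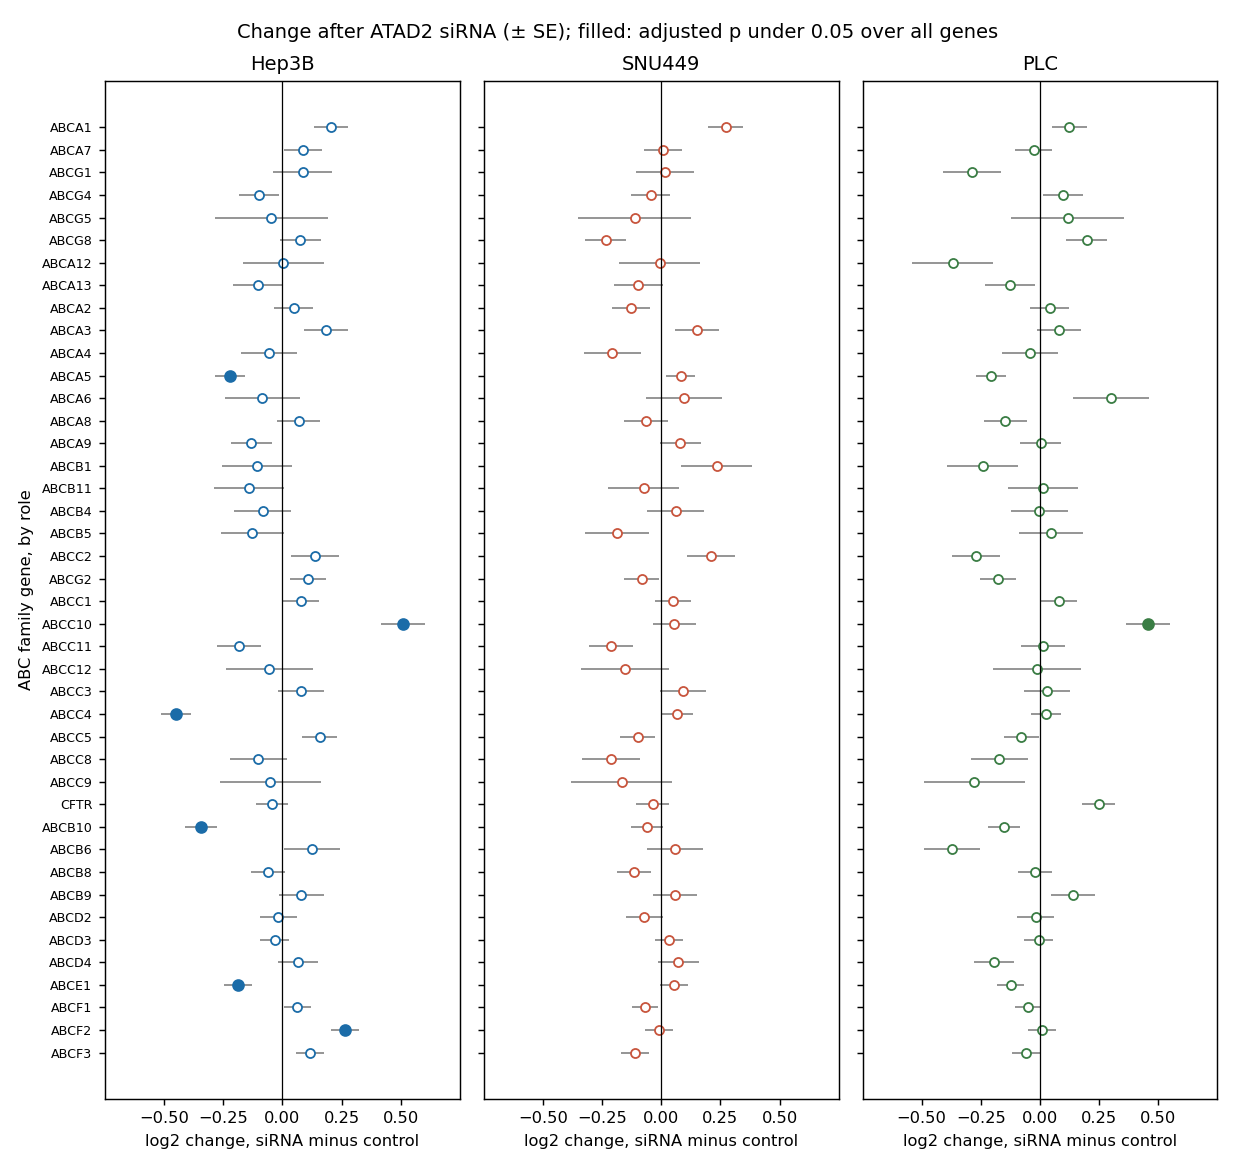
Log2 change after ATAD2 siRNA (siRNA minus control, x axis, ± SE, n = 3 against 3) for each of the 42 members in rows by role, with 1 panel per line; filled points passed an adjusted p of 0.05. ABCC10 is filled in Hep3B (0.51) and PLC (0.46), no point is filled in SNU449, and no member changed by a full log2 unit.

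ABCC10, ABCC4 and ABCB10 had the largest called changes, and the start regions of these 3 genes are shown because the changes after ATAD2 siRNA were largest there. Each is the RefSeq window of GRCh38.p14 from 250 bases before to 50 bases after a listed start, on the gene's own strand. Capitals mark matches, on either strand, to 6 short motifs, namely the CCAAT box (CCAAT), the GC box (GGGCGG), an E-box (CACGTG), an E2F-like motif (TTTNNCGC), a motif resembling the antioxidant element (TGACNNNGC) and a TATA box (TATAAA). ABCC10 has 2 listed starts.
ABCC10, chr6:43427291-43427590 (+): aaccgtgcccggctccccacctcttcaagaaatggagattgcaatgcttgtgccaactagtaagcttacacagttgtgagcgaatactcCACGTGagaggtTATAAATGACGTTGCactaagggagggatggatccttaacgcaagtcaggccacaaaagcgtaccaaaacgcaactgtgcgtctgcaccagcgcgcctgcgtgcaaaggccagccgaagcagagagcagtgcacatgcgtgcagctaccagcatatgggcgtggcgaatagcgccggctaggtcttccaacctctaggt
ABCC10, chr6:43427613-43427912 (+): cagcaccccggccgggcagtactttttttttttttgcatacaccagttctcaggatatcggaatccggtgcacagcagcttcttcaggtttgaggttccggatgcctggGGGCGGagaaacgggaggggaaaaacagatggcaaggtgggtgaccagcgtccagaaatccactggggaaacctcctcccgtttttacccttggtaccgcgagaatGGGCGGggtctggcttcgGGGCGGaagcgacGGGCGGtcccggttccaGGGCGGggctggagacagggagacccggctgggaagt
ABCC4, chr13:95301402-95301701 (-): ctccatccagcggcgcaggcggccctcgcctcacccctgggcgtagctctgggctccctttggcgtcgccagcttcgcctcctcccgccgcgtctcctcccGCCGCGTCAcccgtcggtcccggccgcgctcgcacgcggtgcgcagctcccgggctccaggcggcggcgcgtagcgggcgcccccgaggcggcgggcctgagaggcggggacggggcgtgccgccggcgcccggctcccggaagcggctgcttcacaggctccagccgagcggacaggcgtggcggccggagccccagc
ABCB10, chr1:229558658-229558957 (-): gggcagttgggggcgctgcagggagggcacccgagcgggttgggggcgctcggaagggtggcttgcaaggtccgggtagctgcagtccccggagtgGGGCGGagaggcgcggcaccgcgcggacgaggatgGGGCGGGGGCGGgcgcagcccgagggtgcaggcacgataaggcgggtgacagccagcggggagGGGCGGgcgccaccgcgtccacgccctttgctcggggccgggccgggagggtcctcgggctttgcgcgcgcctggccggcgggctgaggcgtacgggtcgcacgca
The upstream window of ABCC10 held 1 E-box, 1 TATA box and, directly after it, 1 match to the antioxidant motif, while its downstream window held 5 GC boxes. ABCC4 held 1 match to the antioxidant motif and ABCB10 held 4 GC boxes. Across all 35116 windows of the same length, 45.0% held a GC box, 13.3% the antioxidant motif, 11.5% the TATA box and 7.26% the E-box. A match here describes letters and was not tied to any factor.

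ABCC10 encodes MRP7, an exporter of lipophilic drugs such as taxanes. The Hep3B controls had a log2 signal of 7.44, 7.51 and 7.48, and the ATAD2 siRNA arrays 7.81, 8.21 and 7.93. Every siRNA array lay above every control array, a rise of 0.51 ± 0.09 (SE), or 1.42-fold, with an adjusted p of 0.000959. PLC controls had 7.44, 7.43 and 7.46 and the siRNA arrays 7.97, 7.68 and 8.04, again without overlap, a rise of 0.46 ± 0.09 (adjusted p = 0.015). SNU449 started higher, at 7.88, 7.82 and 7.87, and gave 7.91, 7.94 and 7.88 after siRNA, without overlap at the third decimal and with a difference of 0.06 that did not pass. The test for a difference of this change between the lines did not pass (F test, adjusted p = 0.0587), and the mean over the lines was 0.34 (adjusted p = 0.000494).

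The arrays of ABCC10 that stood highest were those of unusual 5′ to 3′ signal, in opposite directions in the 2 lines. In PLC, replicates 1 and 3, with the low 5′ signal, gave 7.97 and 8.04 and replicate 2 gave 7.68. With the 5′ minus 3′ signal as a covariate the PLC change was 0.39 (adjusted p = 0.109), and without replicates 1 and 3, an alternative chosen after seeing the data, it was 0.23 (adjusted p = 0.334), whereas PLC fitted by itself gave the same 0.46 with an adjusted p of 0.276. Without those arrays ABCB6, and not ABCC10, was the 1 member called in PLC. The Hep3B change was 0.52 with the covariate (adjusted p = 0.000929) and 0.39 without replicate 2 of the siRNA group (adjusted p = 0.00407). The other probe set of ABCC10 gave 0.20 in Hep3B and 0.11 in PLC, neither of which passed.

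ABCC4 encodes MRP4, which exports cyclic nucleotides and conjugated bile acids to the blood side. The 3 Hep3B controls had a signal of 10.44, 10.46 and 10.48, and the siRNA arrays 9.96, 10.20 and 9.88. All siRNA arrays were lower, by 0.45 ± 0.06 log2 units or 1.37-fold (adjusted p = 0.000119), the clearest call in the family. SNU449 gave 7.47, 7.42 and 7.45 against 7.55, 7.49 and 7.49, and PLC 9.01, 8.96 and 8.98 against 9.03, 8.97 and 9.02, with differences of 0.07 and 0.03 that did not pass. It was the 1 member of 42 whose change differed between lines (2.38%, against 9.18% of all genes), with an F test adjusted p of 0.00268, and the change in PLC minus that in Hep3B was 0.48 ± 0.09. This difference depended on the probe set. The other 3 probe sets gave -0.46, -0.32 and -0.10 in Hep3B and -0.23, -0.43 and -0.18 in PLC. With the mean of all probe sets the change in PLC minus that in Hep3B was 0.13. The F test between the 3 lines then did not pass (adjusted p = 0.153). Of 13 genes that make or use glutathione, 3 rose in Hep3B, where 8.68% of all genes rose, none changed in SNU449 and 1 fell in PLC, where 2.24% did. In Hep3B GCLM, a subunit of the enzyme that starts glutathione synthesis, rose by 0.38 (adjusted p = 0.000718) and GSR, glutathione reductase, by 0.30.

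**Figure D3:**
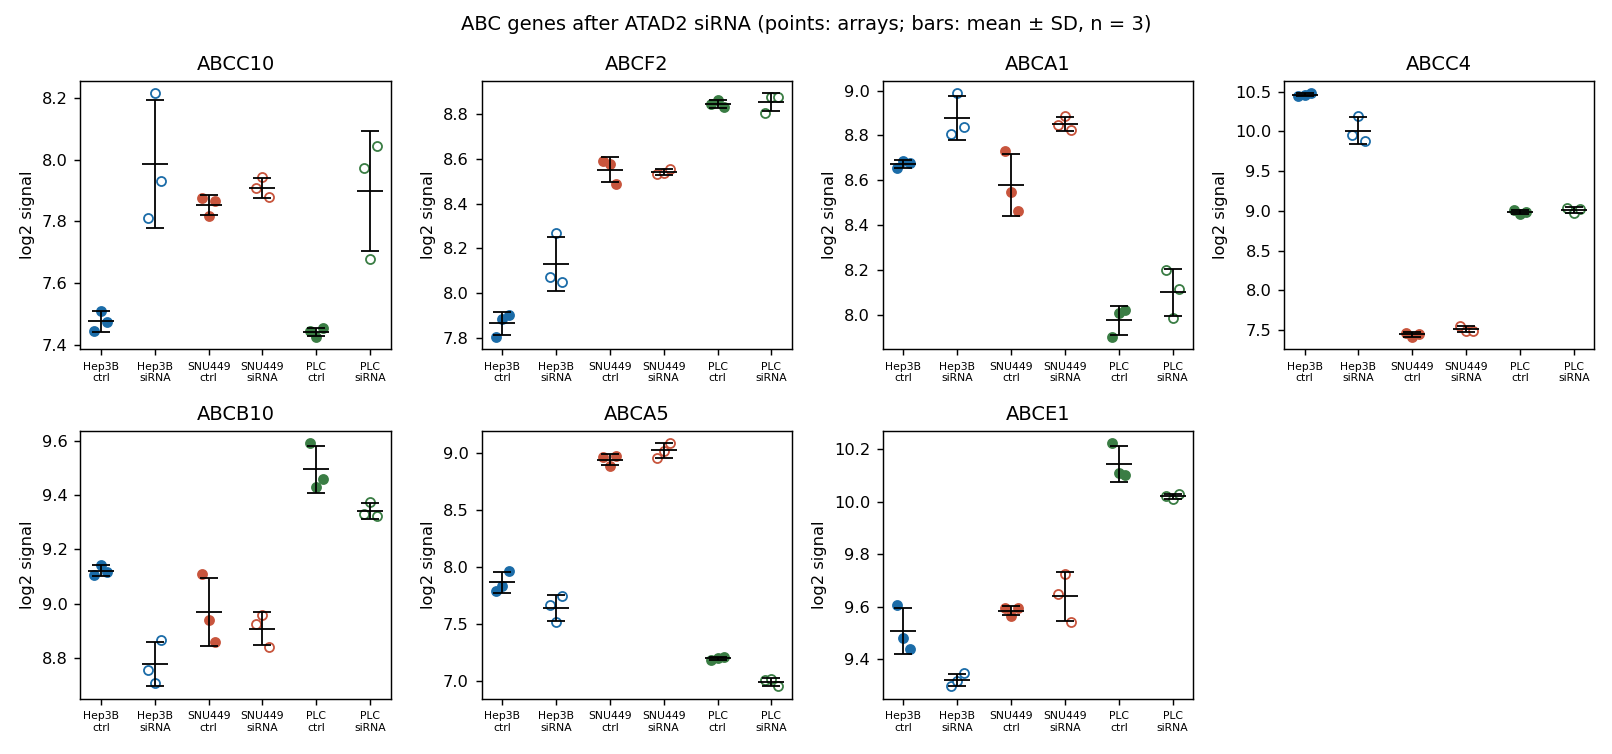
Log2 signal of 7 ABC genes (ABCC10, ABCF2, ABCA1, ABCC4, ABCB10, ABCA5 and ABCE1; y axes differ) on every array, by line and siRNA; points are arrays and bars are mean ± SD of 3. ABCC10 rises in the Hep3B and PLC siRNA groups, and ABCC4 and ABCB10 are lower on all 3 Hep3B siRNA arrays than on the controls.

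Among the mitochondrial and lysosomal transporters, ABCB10, an inner-membrane protein needed for heme synthesis, was the 1 of 4 to change. In Hep3B the controls had 9.10, 9.14 and 9.12 and the siRNA arrays 8.75, 8.71 and 8.87. The groups did not overlap, and the signal fell by 0.35 ± 0.07 (adjusted p = 0.00167). PLC controls had 9.59, 9.43 and 9.46 and siRNA arrays 9.33, 9.38 and 9.32, also without overlap, but the difference of -0.15 did not pass (adjusted p = 0.204), and SNU449 gave -0.06. The mean over the lines was -0.19 (adjusted p = 0.00435). ABCB10 has 1 probe set, so that no other probe set could be compared. Of 15 heme and iron-sulfur partner genes, 1 fell and 1 rose in Hep3B, where 7.74% of all genes fell and 8.68% rose. None of them changed in SNU449 or PLC. The heme synthesis enzyme gene CPOX fell by 0.93 ± 0.09 (adjusted p = 2.82e-06) and the mitochondrial carrier gene SLC25A38 rose by 0.31. ABCB6, a porphyrin transporter, had a difference of -0.37 in PLC, where its replicates gave 4.78, 4.41 and 5.06 against 5.19, 5.10 and 5.08 and did not pass (adjusted p = 0.0793), with both groups under the olfactory receptor level.

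Among the soluble members, ABCF2 rose and ABCE1 fell in Hep3B, and ABCF1 and ABCF3 did not pass. ABCF2 had 7.81, 7.89 and 7.90 on control arrays and 8.07, 8.27 and 8.05 after siRNA, a rise of 0.27 ± 0.06 (adjusted p = 0.00457) without overlap. The highest ABCF2 array was siRNA replicate 2, the array of high 5′ signal, without which the rise was 0.20 and still passed. The other 4 probe sets of ABCF2 gave -0.31 to 0.25, and the mean of all its probe sets gave 0.06 (adjusted p = 0.633), so that the call holds for the probe set used. With Hep3B fitted by itself its adjusted p was 0.0519. ABCE1, the factor that splits ribosomes after termination, had 9.61, 9.48 and 9.44 on control arrays and 9.30, 9.32 and 9.35 after siRNA, so that it fell by 0.19 ± 0.06 (adjusted p = 0.0373) without overlap.

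The ABCE1 call was narrow. It was lost in 10 of 30 alternatives, with an adjusted p of up to 0.498. Among these were the fits without control replicate 1 or 2 or without any of the 3 siRNA replicates of Hep3B. They gave adjusted p-values of 0.0578 to 0.166 and changes of -0.20 to -0.14. The call was also lost with the values as deposited (-0.11, adjusted p = 0.244). The other probe set of ABCE1 fell by 0.34 in Hep3B, with an adjusted p over all probe sets of 0.00106. Of 15 partner genes of ribosome recycling and of stress kinases, 4 rose and 1 fell in Hep3B, where 8.68% of all genes rose and 7.74% fell. In PLC 2 of them rose, beside 2.34% of all genes. The termination factor gene GSPT1 rose in both, by 0.32 and 0.31 (in PLC 0.23 with the values as deposited, adjusted p = 0.0555), EIF6, which keeps ribosomal subunits apart, rose by 0.30 in Hep3B, and EIF2AK4, the GCN2 kinase gene, by 0.30, while EIF2S3 fell by 0.28.

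Among the lipid transporters of the A and G subfamilies, 1 of 15 changed in any line. ABCA5, a transporter of lysosomes and late endosomes, had 7.79, 7.84 and 7.97 in Hep3B controls and 7.67, 7.52 and 7.75 after siRNA. The groups were close but did not overlap, and the signal fell by 0.22 ± 0.06 (adjusted p = 0.0236). In PLC it gave 7.18, 7.20 and 7.21 against 7.01, 7.02 and 6.95, a difference of -0.21 that did not pass (adjusted p = 0.0722), and in SNU449 a difference of 0.08. The Hep3B call was lost in 7 of 30 alternatives, with an adjusted p of up to 0.508. Among these were the values as deposited (-0.13, adjusted p = 0.213) and arrays centred on their medians (-0.09, adjusted p = 0.45). Others were the fits without control replicate 3 (-0.17, adjusted p = 0.124) and without siRNA replicate 2 (-0.16, adjusted p = 0.101). The dim other probe set gave 0.01.

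ABCA1, which loads cholesterol and phospholipid onto apolipoprotein A-I, passed in no single line but did in the mean over the lines. It had 8.65, 8.69 and 8.68 on control arrays and 8.81, 8.99 and 8.84 after siRNA in Hep3B, a difference of 0.21 ± 0.07 (adjusted p = 0.0689). In SNU449 it had 8.73, 8.55 and 8.46 against 8.84, 8.89 and 8.82, a difference of 0.27 (adjusted p = 0.146), and in PLC 7.90, 8.01 and 8.02 against 8.20, 7.99 and 8.11, a difference of 0.12 with overlap. The groups did not overlap in Hep3B and SNU449, and the mean over the 3 lines was 0.20 ± 0.04 (adjusted p = 0.0049). In PLC the low 5′ arrays, siRNA replicates 1 and 3, were the higher ones, and without both the difference was 0.01. In Hep3B the highest was siRNA replicate 2, the array of high 5′ signal. The mean over the lines was not examined with the 5′ minus 3′ signal as a covariate or without these arrays. The other 3 probe sets of ABCA1 gave 0.03 to 0.30 in Hep3B, where 1 of them passed, -0.05 to 0.39 in SNU449 and -0.16 to 0.27 in PLC. Only 1 of the 3 was above 0 in PLC and 2 were in SNU449, so that the mean holds for the probe set used. The Hep3B difference passed in 7 alternatives, among them the values as deposited (0.27, adjusted p = 0.0213). ABCA7 gave 0.09, 0.01 and -0.03 in Hep3B, SNU449 and PLC.

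Of 15 partners of cholesterol efflux, 6 rose and 3 fell in Hep3B, where 8.68% of all genes rose and 7.74% fell, none changed in SNU449 and 3 fell in PLC, where 2.24% of all genes fell. Of the Hep3B falls, that of the sterol hydroxylase gene CYP27A1 did not pass under any of the 3 other scalings (adjusted p = 0.0655 to 0.235), and those of APOA2 and PLTP were between levels under the olfactory receptor level. The Hep3B rises included NPC1 (0.56), which exports cholesterol from lysosomes, the lysosomal lipase gene LIPA (0.48), APOE (0.46) and the cholesterol acyltransferase gene SOAT1 (0.33). In PLC the apolipoprotein genes APOA1, APOE and APOA2 fell by 0.71, 0.69 and 0.59. APOE thus rose in one line and fell in the other, with levels of 7.99 and 11.37 on the control arrays. The PLC changes of partner genes, in this list and the others, were checked under other scalings only. None was examined with the 5′ minus 3′ signal as a covariate or without PLC siRNA replicates 1 and 3. Of 18 nuclear receptors and other regulators of transporter genes, PPARA (0.55), PPARG (0.44) and AHR (0.41) rose in Hep3B, and NR1H3, the LXR-alpha gene, and NR0B2 fell by 0.40 and 0.24 in PLC. The list's median was 0.05 in Hep3B and -0.03 in PLC, beside -0.02 and 0.01 for all genes.

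None of the 6 bile canalicular and multidrug exporters changed in any line. In Hep3B, ABCB1 gave 10.15, 10.71 and 10.01 after siRNA against 10.38, 10.31 and 10.49, with siRNA replicate 2, the array of high 5′ signal, the highest of all. In PLC, ABCC2 gave 9.37, 9.56 and 9.31 against 9.70, 9.69 and 9.67 and ABCG2 gave 9.71, 9.86 and 9.89 against 9.98, 10.02 and 9.98. Both PLC groups were lower without overlap, yet the differences of -0.27 and -0.18 did not pass (adjusted p = 0.133 and 0.186). Of 18 uptake and other bile transporters, ATP8B1, the aminophospholipid flippase of the canaliculus, rose by 0.77 ± 0.08 in Hep3B (adjusted p = 6.98e-06), together with the copper pump gene ATP7B (0.25, under the olfactory receptor level in both groups and not called with the values as deposited), and SLC51B, a subunit of the basolateral bile acid exporter, fell by 0.49 in PLC. Among all genes, 8.68% rose in Hep3B and 2.24% fell in PLC.

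The remaining members passed in no line. The channel genes ABCC8 and ABCC9, sulfonylurea receptors of potassium channels, and CFTR, the chloride channel of epithelia, gave no call, and CFTR in PLC was the nearest, with 8.67, 8.69 and 8.70 on control arrays and 9.04, 8.81 and 8.96 after siRNA, a difference of 0.25 ± 0.07 (adjusted p = 0.0505). Its siRNA arrays were all higher, and 6 of 30 alternatives put the difference past the threshold. Over the 30 alternatives the difference ranged from 0.04 to 0.31. The low 5′ arrays, replicates 1 and 3, were again the higher ones. The CFTR difference was 0.17 with the 5′ minus 3′ signal as a covariate (adjusted p = 0.354) and 0.12 without both of those arrays (adjusted p = 0.646). ABCD3, the peroxisomal membrane protein PMP70, gave -0.03, 0.03 and -0.01 in Hep3B, SNU449 and PLC. Of 15 peroxisomal partners 1 rose and 2 fell in Hep3B, where 8.68% of all genes rose and 7.74% fell. In SNU449 1 rose, where 0.147% of all genes did, and none changed in PLC. CROT, which makes carnitine esters of medium-chain acids, rose by 0.85 in Hep3B and 0.68 in SNU449, while the peroxin genes PEX6 and PEX10 fell in Hep3B by 0.29 and 0.19 and did not pass with the values as deposited (adjusted p = 0.0589 and 0.255). Uncalled members ranged from -0.18 (ABCC11) to 0.21 (ABCA1) in Hep3B, from -0.23 (ABCG8) to 0.27 (ABCA1) in SNU449 and from -0.37 (ABCB6) to 0.30 (ABCA6) in PLC, with a median SE of 0.09, so that changes of that size could be missed.

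**Figure D4:**
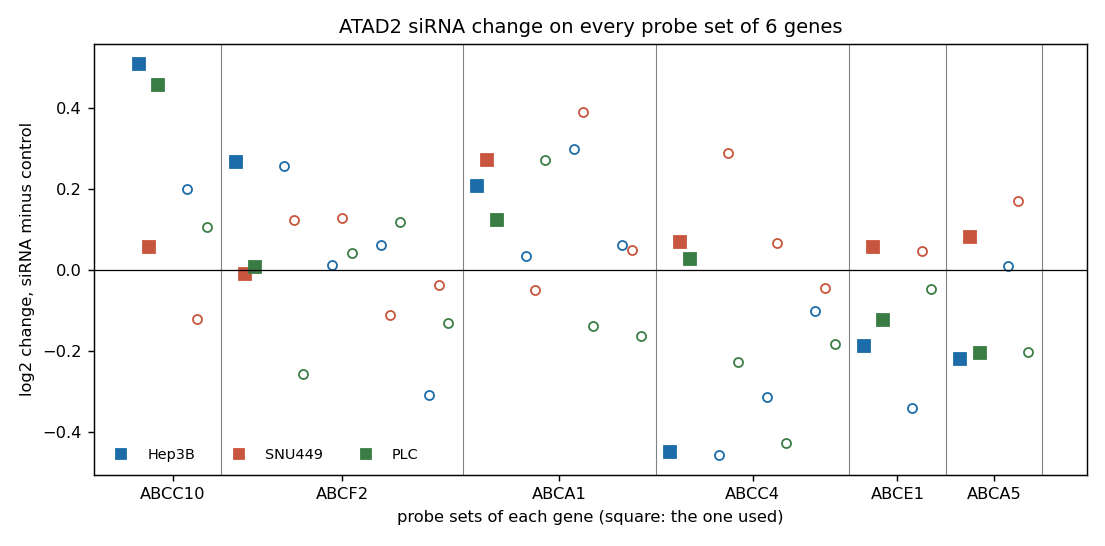
Log2 change after ATAD2 siRNA (y axis) on every probe set of ABCC10, ABCF2, ABCA1, ABCC4, ABCE1 and ABCA5 (x axis, genes side by side), by line (colour); squares are the probe sets used and circles the others. The probe sets of ABCF2 lie on both sides of 0 in Hep3B, while those of ABCC4 and ABCE1 are below 0 there.

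The lines themselves differed far more than siRNA and control did. A call between control groups asked for an adjusted p under 0.05 and a log2 difference of 1 or more. Between SNU449 and Hep3B, 10 of 42 members were called (23.8%, against 19.7% of all genes), 5 higher in SNU449 (9.24% of all genes) and 5 lower (10.5%). Between PLC and Hep3B there were 12 (28.6%, against 18.4%), 6 higher in PLC (9.58% of all genes) and 6 lower (8.83%). Between SNU449 and PLC there were 10 (23.8%, against 19.2%), 4 higher in SNU449 (8.63% of all genes) and 6 lower (10.5%). Some of these calls were between groups that were both under the olfactory receptor level and give no measured difference. They were ABCA12 and ABCB9 between SNU449 and Hep3B, ABCA12 and ABCB11 between PLC and Hep3B, and ABCB9 between SNU449 and PLC. The shares of all genes were not limited by that level either. Groups did not overlap for 30, 29 and 28 members in these pairs, where 74.6%, 75.2% and 76.5% of all genes did not. These comparisons share control groups in pairs and are not independent, and the same control arrays serve the siRNA comparisons. In all, 15 members were called in at least 1 pair, 27 in none, and ABCC2, ABCC4 and ABCG2 in all 3, ABCC4 in 2 of them with arrays centred on their medians.

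Comparisons with PLC depended on scaling, because its deposited values had a median of 4.14 to 4.21 against 5.36 to 5.62 in the other lines. With the values as deposited, PLC had 5 members above and 17 below Hep3B, and 43.0% of all genes were called with a median of -0.62. With arrays centred on their medians, 17 were higher and 3 lower, and that median was 0.62. SNU449 against PLC gave 17 higher and 5 lower with the values as deposited and 3 and 17 with centred arrays. The called differences between control groups kept their direction under each scaling, except that of ABCB9 between SNU449 and PLC.

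Of the drug exporters of the canalicular membrane, ABCB1 was highest in Hep3B and ABCG2 and ABCC2 in PLC. ABCB1 encodes P-glycoprotein, which expels many drugs. Hep3B controls had a signal of 10.38, 10.31 and 10.49, those of SNU449 6.79, 6.91 and 6.83, and those of PLC 6.03, 6.15 and 6.07. Hep3B stood clear of the others, with SNU449 11.7-fold lower (a log2 difference of -3.55 ± 0.15, adjusted p = 7.63e-13) and PLC at -4.31, and the other probe set gave -3.89 and -3.81. ABCG2, the breast cancer resistance protein, ran the other way, with 4.21, 4.43 and 4.18 in Hep3B, then 6.95, 6.85 and 6.96 in SNU449, then 9.98, 10.02 and 9.98 in PLC. All 3 lines were separate, PLC being at least 21.3-fold above Hep3B (limma, adjusted p = 1.75e-19), where the signal was under the olfactory receptor level and was counted at that level. ABCC2, or MRP2, which exports conjugated bilirubin, had 9.70, 9.69 and 9.67 in PLC, 7.75, 7.83 and 7.66 in Hep3B and 5.86, 5.93 and 5.81 in SNU449. The order of its levels was thus PLC, Hep3B and SNU449, with SNU449 at -3.82 against PLC.

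ABCB4, the phosphatidylcholine floppase of bile, had 6.37, 6.50 and 6.55 in SNU449 and 4.76, 4.69 and 4.83 in Hep3B, and 4.44, 4.29 and 4.07 in PLC. SNU449 alone was above the olfactory receptor level, and was at least 1.85-fold above Hep3B (adjusted p = 9.44e-10). ABCB4 and ABCB1 are direct neighbours on chromosome 7 in RefSeq, and their highest lines differed, SNU449 for ABCB4 and Hep3B for ABCB1. ABCB11, the bile salt export pump, stayed under the olfactory receptor level on every array, with means of 4.98, 4.23 and 3.77 in Hep3B, SNU449 and PLC. ABCB5 had means of 5.88, 6.19 and 5.80 and was called in no pair.

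**Figure D5:**
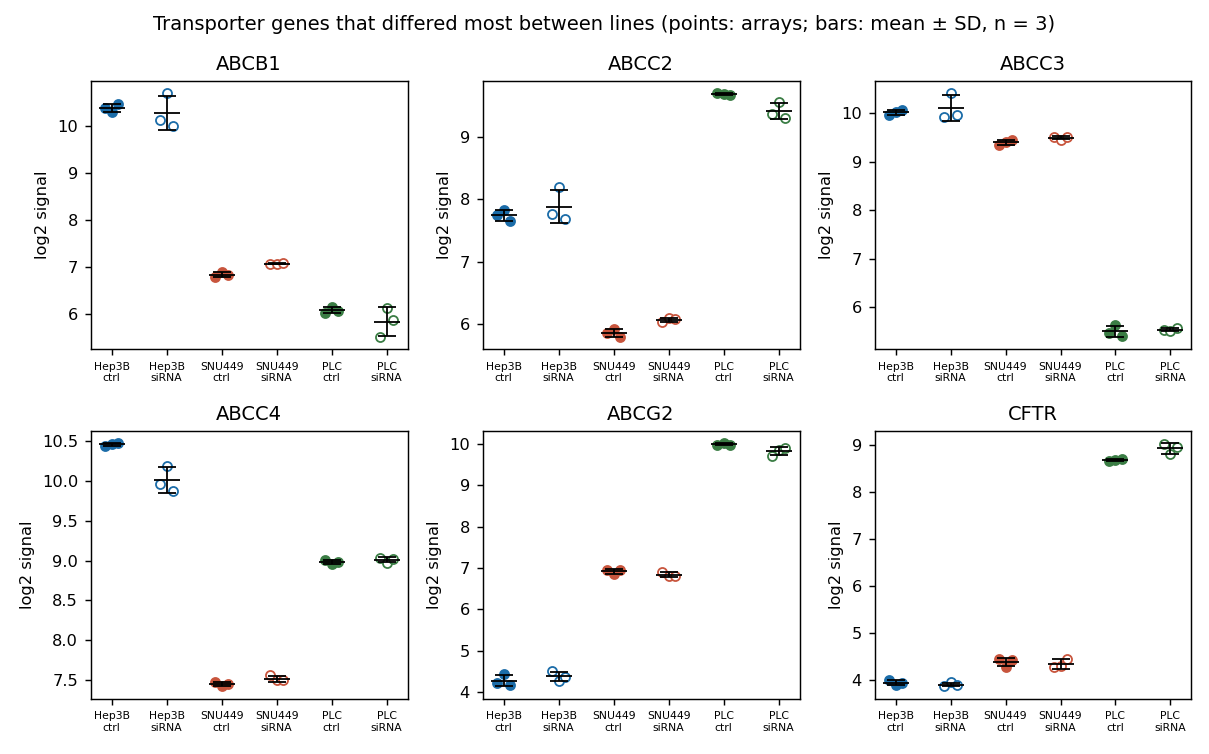
Log2 signal of ABCB1, ABCC2, ABCC3, ABCC4, ABCG2 and CFTR (y axes differ) on every array, by line and siRNA; points are arrays and bars are mean ± SD of 3. ABCB1 is highest in Hep3B, ABCG2, ABCC2 and CFTR in PLC, and ABCC3 is low in PLC, in siRNA groups as in controls.

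Of the exporters on the blood side, ABCC3, or MRP3, a pump for glucuronides, was low in PLC. PLC controls had 5.47, 5.63 and 5.41, where Hep3B had 9.96, 10.03 and 10.07 and SNU449 9.35, 9.40 and 9.45, with the PLC mean and 2 of its 3 arrays under the olfactory receptor level. Hep3B was at least 21.4-fold higher than PLC (limma, adjusted p = 8.86e-17), with arrays under that level counted at it, as for each such bound given here. Its other 4 probe sets were also lower in PLC, by less (-2.67 to -0.40). ABCC4 was highest in Hep3B, lowest in SNU449 and between them in PLC, from the array values given above. SNU449 minus Hep3B was -3.02 ± 0.06 (adjusted p = 7.71e-17) and PLC minus Hep3B -1.48, and its other 3 probe sets were lower in both. With arrays centred on their medians the PLC minus Hep3B difference of ABCC4 was -0.16 and no longer called (adjusted p = 0.0558). ABCC1, which pumps glutathione conjugates, had means of 9.03, 8.53 and 8.68 in Hep3B, SNU449 and PLC and was called in no pair. Of 13 glutathione genes, 6 were higher in PLC than in Hep3B, GSTP1 by 5.91 and GCLC by 2.07, and none was lower (6 higher and 2 lower with the values as deposited, 9 and 0 with centred arrays), where 9.58% of all genes were higher and 8.83% lower.

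CFTR was a PLC gene in these arrays. Its signal was 8.67, 8.69 and 8.70 in PLC, 4.005, 3.89 and 3.94 in Hep3B and 4.44, 4.28 and 4.42 in SNU449. Both other lines lay under the olfactory receptor level, and PLC was at least 8.57-fold above Hep3B and SNU449 (limma, adjusted p = 5.37e-19 and 2.71e-18). Of its other 5 probe sets, 4 also passed in the same direction, with differences of up to 4.41. In liver CFTR is known from bile duct cells, and the bile duct keratin genes KRT7 and KRT19 had signals of 5.52 and 5.69 in PLC, against 11.1 and 3.36 in Hep3B and 5.16 and 10.4 in SNU449. The other bile duct genes looked at, SOX9 and EPCAM, had 7.49 and 6.09 in PLC, 10.7 and 2.73 in Hep3B and 9.51 and 12.5 in SNU449. ABCC8 and ABCC9 were called in no pair.

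ABCA8, a lipid transporter, had 6.39, 6.31 and 6.56 in PLC, 2.62, 2.82 and 2.89 in Hep3B and 2.73, 2.66 and 2.79 in SNU449. PLC alone was above the olfactory receptor level and at least 1.78-fold higher than Hep3B (adjusted p = 9.15e-16), but its other 2 probe sets gave -0.28 and 0.23. Its chromosome 17 neighbours ABCA9 and ABCA6 were under the olfactory receptor level on all arrays and called in no pair. ABCA7, a phospholipid transporter, had 7.50, 7.56 and 7.54 in SNU449, 6.83, 6.91 and 6.73 in PLC and 5.72, 5.67 and 5.90 in Hep3B. The lines did not overlap, and SNU449 was 1.77 above Hep3B. ABCA12, known from skin lipids, had 4.69, 4.51 and 4.50 in Hep3B, 3.41, 3.23 and 3.38 in PLC and 2.56, 2.43 and 2.61 in SNU449, all under the olfactory receptor level. ABCA5 had a mean of 8.94 in SNU449, 7.87 in Hep3B and 7.20 in PLC. ABCA1 had means of 8.67, 8.58 and 7.98 in Hep3B, SNU449 and PLC and was called in no pair, while the lipid acceptor genes APOA1 and APOA2 were at least 88.1-fold and 253-fold higher in SNU449 than in Hep3B, where they were under the olfactory receptor level.

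ABCB6 was low in PLC on the probe set used, with 5.19, 5.10 and 5.08 there, 7.70, 7.63 and 7.67 in Hep3B and 7.51, 7.47 and 7.50 in SNU449, with PLC under the olfactory receptor level and Hep3B at least 4.22-fold higher (adjusted p = 3.37e-12). Its other probe set gave 0.37 and also passed, so that the direction for the gene is not settled. ABCB8, a mitochondrial transporter, gave 1.11 in SNU449 and 1.19 in PLC against Hep3B (0.53 in PLC with the values as deposited, which is under the limit for a call), and its other probe set -0.84 and 0.31. ABCB9, a lysosomal peptide transporter, had means of 5.33, 4.17 and 5.31 in Hep3B, SNU449 and PLC, all under the olfactory receptor level, so that the calls between them give no measured difference, and its sign between SNU449 and PLC turned with the values as deposited. ABCB10 was called in no pair. Among the peroxisomal members, ABCD3 had means of 10.96, 11.08 and 11.80 in Hep3B, SNU449 and PLC, and ABCD2 of 2.27, 2.29 and 2.27.

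No soluble factor was called between lines, and all 4 had their lowest mean in Hep3B. The means in Hep3B, SNU449 and PLC were 9.51, 9.58 and 10.15 for ABCE1, 8.95, 9.70 and 9.72 for ABCF1, 7.86, 8.55 and 8.85 for ABCF2 and 7.06, 7.39 and 7.70 for ABCF3. The median difference of the 4 was 0.51 in SNU449 and 0.70 in PLC against Hep3B, beside -0.02 for all genes in both. With arrays centred on their medians 3 of the 4 remained above Hep3B in SNU449, and PLC was above it for all 4 under each scaling.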

How the data were processed

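The deposited table held 54675 probe sets on 18 arrays. The values were taken as log2 signals from their range of 1.33 to 14.0, and the sources used here do not give the authors' background correction or normalization. The submitters' processing notes name limma, with no version. Once sorted, the deposited log2 columns of 1 line lay within 0.155 of each other and those of different lines up to 1.51 apart, so all arrays were quantile normalized together. The platform annotation gave 1 gene for 41097 probe sets, several for 1801 and none for 11777, and 41043 symbols were updated from RefSeq (GRCh38.p14).

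A model with 1 mean per group and no replicate block covered all 19775 genes in limma 3.58.1 (R 4.3.3) with 12 residual and 4.01 prior degrees of freedom, and was tested on simulated data. The simulated arrays had 1 spread per gene for all 6 groups. They therefore do not cover the wider spread of the PLC and Hep3B siRNA groups, and no call of a member rests on them. An exact permutation test of 3 against 3 arrays cannot give a two-sided p below 0.1, so none was run. The number of arrays limits the precision, and p-values measure the spread between arrays labelled as biological replicates. That spread was shared by all 6 groups. The median SD of a gene was 0.118 in the PLC siRNA group and 0.0931 in the Hep3B siRNA group, against 0.0661 to 0.0726 in the others. SEs of changes that involve these siRNA groups can therefore be too small. Same-numbered arrays did not deviate together (correlations of -0.125 to 0.0928). Values by array were given for members called after siRNA or differing between lines, and for the 6 largest called differences of each control pair; other members are given by single values, and partner lists by up to 4 genes. CFTR in PLC, ABCA1, ABCB4, ABCB6 and the uncalled exporters are given by array after their values were seen. The members and lists were chosen with earlier results of these data known. Promoter windows were RefSeq's, for 34 of the members. Some genes of the family are not reported here.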

Additional observations from a re-analysis of the deposited data

Results flagged for a closer look

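The change of ABCC4 after ATAD2 siRNA differed between lines by a test of the difference itself, with PLC minus Hep3B at 0.48 log2 units and SNU449 minus Hep3B at 0.52. The 3 siRNA arrays were all lower than control in Hep3B (-0.45), and the changes were 0.03 in PLC and 0.07 in SNU449. The value rests on 1 of 4 probe sets, since the others were below 0 in PLC as well.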

How the results depend on the processing

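Of 1247 values for 44 named results under 32 settings, 1188 kept their direction and side of the threshold, 43 lost the call, 14 gained one and 2 reversed. Most of these values were differences between control groups (867 kept, 19 lost, 2 reversed). For siRNA changes in a line 293 values were kept, 23 lost the call and 14 gained one. For the siRNA change between lines 28 were kept and 1 lost the call. Both reversals were ABCB9 between SNU449 and PLC, at 0.21 with the values as deposited and 0.17 with quantile normalization within each line. Members changed in Hep3B went from 6 to 3 with the line fitted by itself (5 to 7 leaving out single arrays), and in SNU449 from 0 to 1 (ABCA1) with arrays centred on their medians. In PLC the 1 became 3 with the values as deposited, 4 with quantile normalization within lines, 4 with centred arrays, 2 without the dimmest 30% of genes, 3 without genes at the olfactory receptor level, 3 with an intensity trend, and 0 with the 5′ covariate, at an adjusted p of 0.01, or with PLC by itself; leaving out single arrays gave 1 to 5. Members differing between PLC and Hep3B went from 12 to 22, 21 and 20 under deposited, within-line and centred values, and between SNU449 and PLC from 10 to 22, 22 and 20. Members whose change differed between lines went from 1 to 5, 4 and 7 under the same scalings, 6 under either filter, 3 with the mean of probe sets, 5 with the trend, 3 without both PLC arrays of low 5′ signal (chosen after seeing the data), and 1 to 7 leaving out single arrays. The replicate block gave 5 members in Hep3B, losing ABCE1 (adjusted p = 0.0969), 0 in SNU449, 1 in PLC and 1 between lines, with the numbers not pairing the arrays. Signals under the olfactory receptor level limit what the 13 members never above it can show.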

Other observations

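TAP1 and TAP2, which form the peptide transporter of antigen presentation, are ABC proteins with other symbols. On control arrays TAP1 had a mean of 8.09 in Hep3B, 6.31 in SNU449 and 8.10 in PLC, and TAP2 7.59, 6.27 and 7.64. SNU449 was thus lower than Hep3B by differences of -1.77 and -1.32. Of the 16 antigen loading genes measured, 11 were lower and none higher in SNU449 than in Hep3B (10.5% of all genes were lower), with a median of -1.26 beside -0.02 for all genes (7 lower and a median of -0.93 with the values as deposited), and ERAP2, a peptide-trimming enzyme gene, and the immunoproteasome gene PSMB9 were at least 6.89-fold and 6.23-fold lower in SNU449, where they were under the olfactory receptor level. After ATAD2 siRNA, TAP2 rose by 0.25 in Hep3B (limma, adjusted p = 0.0361) with PSMB8 (0.53), these being the 2 of 16 to change there, and neither TAP gene passed in SNU449 or PLC, where HLA-C, which fell by 0.22 in PLC, was the 1 gene of the list called. Among all genes, 8.68% rose in Hep3B and 2.24% fell in PLC.

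Some members had probe sets that told different stories between lines. For ABCD3 the bright probe set gave SNU449 minus PLC of -0.72 and the dimmer -2.74. For ABCC5, a cyclic nucleotide exporter, the probe set used gave 0.01 for SNU449 minus PLC, and the others -1.17 and -1.70. A probe set shared by ABCB8 and ASIC3, outside the gene tests, gave -0.50 in PLC after siRNA (adjusted p over all probe sets 0.0241), while ABCB8 itself gave -0.02.

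Among 50 promoter windows of 34 members, an E-box (CACGTG) stood in 9, beside 7.26% of all 35116 windows, and the antioxidant-like motif in 12, beside 13.3% of all. The GC box stood in 25 (45.0% of all windows), the TATA box in 7 (11.5%), the CCAAT box in 12 (34.6%) and the E2F-like motif in 3 (6.89%). The counts were not tested, and windows of 1 gene can overlap.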
